A study of Mus musculus with 2 samples.

Results

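Fos, Fosb, Jun, Junb, Egr1, Atf3, Ier2, Ier3, Dusp1 and Hspa1a are 10 of the 32285 genes of the count matrices. They were taken by name as a list of immediate early and stress genes, with no threshold on their values, and the question was whether a difference between control and Dnmt1iECKO tumors was shared by all cell types or was one of the endothelium. Single-cell RNA-seq was available for 1 control and 1 Dnmt1iECKO library, each made from the pooled YUMMER1.7 melanomas of 3 female mice aged 8 to 10 weeks. YUMMER1.7 is a mouse melanoma line. The tumors were dissociated mechanically and with collagenase II, dispase and DNase I, and sorted for live CD31+CD45- cells, CD31 being an endothelial and CD45 an immune surface protein. The Dnmt1iECKO mice are labelled Cdh5CreERT2;Dnmt1fl/fl;ZsGreenlsl/lsl. Their Cre is driven by the promoter of the endothelial cadherin gene and was switched on with tamoxifen before tumor challenge. The controls are labelled C57BL/6, while the study's methods give its control mice as carriers of the same Cre and ZsGreen reporter without the floxed Dnmt1 alleles. With 1 pooled library per condition, no difference between conditions could be tested, and every interval below is an exact 95% interval that covers counting error only.

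Immediate early genes are transcribed within minutes of a stimulus, without new protein synthesis, and most of their mRNAs are short-lived. Serum, shear stress, cytokines, warming and the digestion of a tissue into single cells can each induce them, so in sorted cells their level reflects the tissue and the preparation together. Heat shock genes such as Hspa1a answer to unfolded protein through the transcription factor HSF1, which is a different route from the kinase cascades that reach Fos and Egr1.

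The 250 bases before the annotated start are shown for Fos and Fosb, which were higher in Dnmt1iECKO endothelium, for Hspa1a, which was lower, and for Jun, which hardly differed. The sequences are RefSeq's for GRCm38.p6, of which 8 of the 10 genes had an entry that could be used. Capitals mark 3 motifs searched on both strands: TGACG, the core of the cAMP response element, GAANNTTC, the inverted pair of heat shock element units, and TATAAA. The Fos window is chr12:85473640-85473889 on the forward strand, and the windows of Fosb (chr7:19310046-19310295), Jun (chr4:95052223-95052472) and Hspa1a (chr17:34972157-34972406) are on the reverse strand.
Fos: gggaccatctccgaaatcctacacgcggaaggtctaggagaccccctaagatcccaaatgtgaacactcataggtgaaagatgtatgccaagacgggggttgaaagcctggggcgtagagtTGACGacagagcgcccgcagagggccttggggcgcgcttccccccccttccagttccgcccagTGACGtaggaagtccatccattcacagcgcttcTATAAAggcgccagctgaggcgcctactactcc
Fosb: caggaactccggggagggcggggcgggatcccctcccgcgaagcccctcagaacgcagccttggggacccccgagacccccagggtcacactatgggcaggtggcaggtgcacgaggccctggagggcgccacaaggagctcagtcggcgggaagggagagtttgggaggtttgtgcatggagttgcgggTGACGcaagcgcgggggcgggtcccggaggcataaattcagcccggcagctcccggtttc
Jun: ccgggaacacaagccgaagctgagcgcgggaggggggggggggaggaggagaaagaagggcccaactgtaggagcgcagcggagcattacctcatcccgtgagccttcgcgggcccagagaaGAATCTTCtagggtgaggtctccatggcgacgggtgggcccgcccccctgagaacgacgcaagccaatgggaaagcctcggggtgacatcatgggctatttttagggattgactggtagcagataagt
Hspa1a: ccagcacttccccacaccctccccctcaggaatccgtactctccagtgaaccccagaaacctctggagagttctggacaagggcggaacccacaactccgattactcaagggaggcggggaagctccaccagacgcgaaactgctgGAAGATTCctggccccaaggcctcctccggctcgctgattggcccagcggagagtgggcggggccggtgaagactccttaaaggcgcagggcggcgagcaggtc
TGACG stood in 5 of the 8 windows (Fos, Fosb, Junb, Atf3 and Dusp1), compared with 17.8% of 32851 windows of the same length. In Fos it was found 129 to 125 and 66 to 62 bases before the start, and in Fosb 60 to 56 bases before. GAANNTTC was present in Hspa1a, 104 to 97 bases before the start, and in Jun, 128 to 121 bases before, and in 6.69% of all windows. TATAAA was matched in Fos alone among the 8, 33 to 28 bases before the start, and in 12.4% of all windows. The full element TGACGTCA was found in Dusp1 only, where it overlaps matches of TGACG, and in 1.55% of all windows. Neither TGANTCA, the AP-1 site (6.75% of all windows), nor the CArG box of serum response factor (1.47%) was matched in any of the 8 windows, which says only that these letters are not in these 250 bases.

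The matrices held 9301 control and 9522 Dnmt1iECKO cells with 123830489 and 141433493 UMIs (unique molecular identifiers, each 1 captured transcript), and 29 barcodes occurred in both. After removal of cells with over 10% mitochondrial UMIs, with under 500 detected genes or scored as doublets, 7764 and 7839 cells remained. Of these, 4848 control and 2064 Dnmt1iECKO cells without a UMI of Ptprc, Epcam, Cspg4 or Myh11 and with a UMI of Cdh5 or Pecam1 were taken as tumor endothelial cells (TECs), with medians of 9600 and 9755 UMIs. Dnmt1, the deleted gene, stood at 48.9 CPM (a gene's UMIs relative to all UMIs of the same cells) in control TECs (47.1 to 50.8) and at 26.7 in Dnmt1iECKO TECs (24.7 to 28.8), a log2 ratio of Dnmt1iECKO over control of -0.87. It was lower in the 6 endothelial classes, with log2 ratios of -0.70 to -1.06, and between -0.37 and 0.64 in the other named cell types with enough UMIs. Whether these 3′ reads lie in the floxed stretch is not given in the sources used here. The labels describe subcutaneous tumors, whereas the methods describe lung tumors, and clusters with the markers of alveolar type 1 and type 2 epithelium were found in both libraries. Although the sort was for CD45- cells, clusters with markers of T, B and NK cells, macrophages, monocytes and neutrophils were found too, and these served as the non-endothelial comparison. No cluster reached the name putative tumor. Classes are named from markers, so each name below stands for cells that are like that type.

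Over all TECs, the members split into a group that was higher in the Dnmt1iECKO library, a group that hardly differed and Hspa1a, which was lower. A gene was called higher or lower where its log2 ratio was at least 0.32 in size. Fos and Fosb passed this upward, Hspa1a passed it downward, and Egr1, Atf3 and Dusp1 were between 1.18- and 1.23-fold higher. These 2 members of 10 higher compare with 14.2% of the 13004 genes with at least 100 UMIs over TECs, and the 1 lower compares with 6.84%. The median log2 ratio of the 10 members was 0.18, beside -0.01 for all 13004 genes. The upward calls are close to the limit: in the 3852 control and 1623 Dnmt1iECKO cells of the clusters named endothelial, taken before the marker exclusions, Fos had a log2 ratio of 0.26 and Fosb of 0.28, none of 10 members was higher (16.2% of genes) and 1, Hspa1a, was lower (11.5%).

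**Figure D1:**
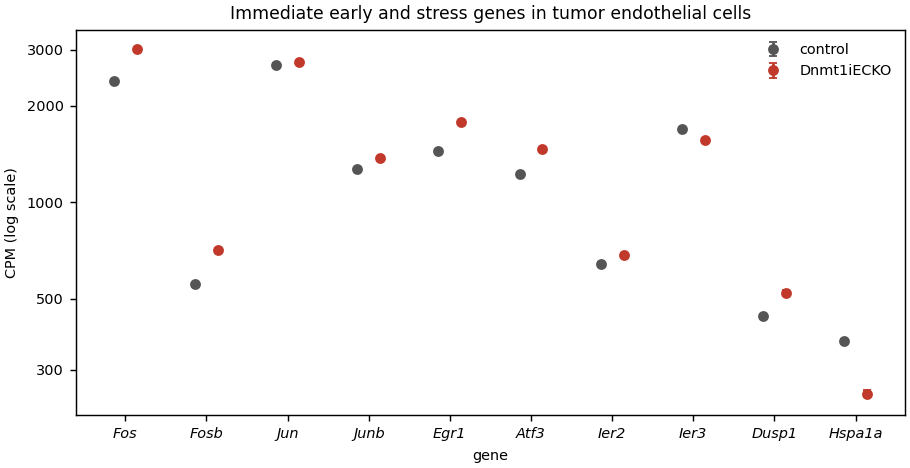
Level in CPM (log scale) of the 10 genes over all TECs of the control (gray) and Dnmt1iECKO (red) library, 1 point per library with its exact Poisson 95% interval, which is mostly smaller than the point. Fos, Fosb, Egr1, Atf3 and Dusp1 sit higher in the Dnmt1iECKO library, Jun differs by 0.03 on the log2 scale, and Hspa1a is at 368 and 252 CPM.

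Fos encodes a subunit of AP-1, the dimeric transcription factor formed by FOS and JUN proteins. It lies on chromosome 12 (GRCm38, 85473890 to 85477273, forward strand). In TECs it stood at 2399 CPM in the control library (2386 to 2412) and at 3020 in the Dnmt1iECKO library (2999 to 3041), a log2 ratio of 0.33. Fosb, which encodes a second FOS-type subunit, lies on chromosome 7 (19302696 to 19310051, reverse strand). Its level went from 555 (548 to 561) to 708 CPM (698 to 718), a log2 ratio of 0.35. Counting error was small beside both differences, while the spread between libraries of 1 condition was not measured.

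Jun encodes a JUN-type partner, of the kind that FOS proteins need to bind DNA. It lies on chromosome 4 (95049034 to 95052222, reverse strand), overlapping a gene on the opposite strand. In TECs Jun stood at 2678 and 2744 CPM, a log2 ratio of 0.03 (0.02 to 0.05), and it was the most abundant member in the control library. Junb, a JUN-type subunit on chromosome 8 (84974484 to 84978718, reverse strand), stood at 1272 and 1372 CPM, a log2 ratio of 0.11. Thus both FOS-type members were called higher, close to the limit as given above, and neither JUN-type member was. These values are of mRNA ends counted per gene, and levels are compared between genes only as UMIs, which 3′ counting does not scale with length.

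Egr1 and Atf3 encode transcription factors of other families, a zinc finger protein induced by growth factors and flow and a bZIP protein induced by many stresses. Egr1 stood at 1445 CPM in control TECs and at 1780 in Dnmt1iECKO TECs, a log2 ratio of 0.30 (0.28 to 0.32). Atf3, on chromosome 1 (191170296 to 191218039, reverse strand), stood at 1230 and 1468 CPM, a log2 ratio of 0.26 (0.24 to 0.27). Both were higher in the Dnmt1iECKO library but short of the log2 ratio of 0.32.

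Dusp1 encodes a phosphatase that switches off MAP kinases, and it is thus a feedback gene of the cascade that induces Fos. It stood at 441 and 521 CPM in TECs, a log2 ratio of 0.24 (0.21 to 0.27). Ier2, on chromosome 8 (84661331 to 84662852, reverse strand), stood at 643 and 685 CPM, a log2 ratio of 0.09. Ier3, which encodes a regulator of cell survival (chromosome 17, 35821684 to 35822923, forward strand), was the other member below 0, at 1691 and 1567 CPM, with a log2 ratio of -0.11 (-0.13 to -0.09).

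Hspa1a encodes the inducible 70-kilodalton heat shock chaperone and lies on chromosome 17 (34969190 to 34972156, reverse strand), close to its near copy Hspa1b (34956436 to 34959238). It stood at 368 CPM in control TECs (363 to 373) and at 252 in Dnmt1iECKO TECs (246 to 258), a log2 ratio of -0.55 (-0.59 to -0.51). Hspa1b stood at 299 and 209 CPM, a log2 ratio of -0.52. The transcripts of the pair are 85.5% identical over their length but 52.8% over the last 300 bases, where 3′ reads fall. Reads shared by both copies could still be split or lost, so the values of either are uncertain to that extent.

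The endothelial classes differed in how many members were called. Artery, of 60 control and 55 Dnmt1iECKO cells, had 8 of 10 members higher, against 19.0% of its tested genes. General capillary had 4 of 10 higher (13.3% of genes) and aerocyte, the thin gas-exchange capillary cell of the lung, 2 of 10 (11.5%). Vein had none of 10 higher (15.0%), the interferon gamma activated class none (17.6%) and the proliferating class 1 (18.1%). Downward, Hspa1a was the 1 member of 10 called lower in artery (31.1% of genes), in vein (20.1%) and in the proliferating class (18.2%). In the interferon gamma activated class Ier3 was lower too, for 2 of 10 (15.5%), while none was lower in general capillary (12.0%) or aerocyte (12.8%). Over the 6 classes, 15 of 60 pairs of a member and a class were higher, 8 of them in artery, and 5 were lower. The shares of genes in single classes were 11.5% to 19.0% higher and 12.0% to 31.1% lower.

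**Figure D2:**
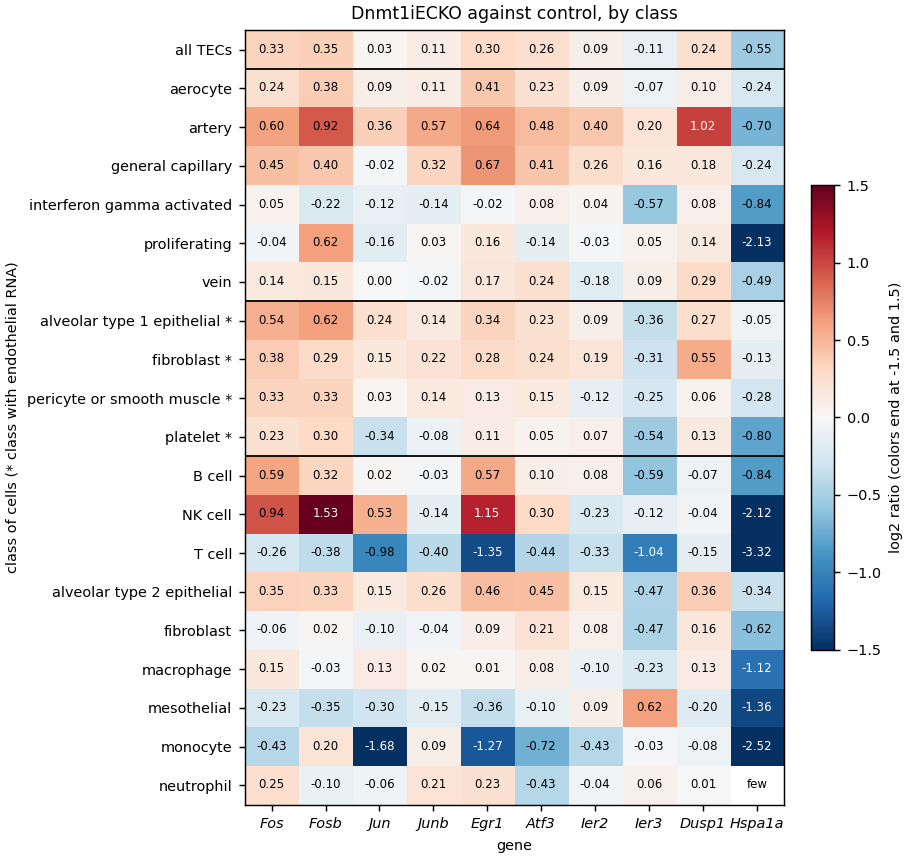
Log2 ratio of Dnmt1iECKO over control for the 10 genes (columns) in all TECs, 6 endothelial classes, 4 classes with endothelial RNA (asterisk) and 9 other cell types (rows), with the value printed in each cell and "few" where a class held under 20 UMIs. The Hspa1a column is below 0 in each row with a value, while the Fos, Fosb and Egr1 columns are mostly above 0 in the endothelial rows and of mixed sign in the other cell types.

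Fos was above 0 in 5 of the 6 endothelial classes. In artery it stood at 3601 CPM (3470 to 3735) and at 5466 (5288 to 5648), a log2 ratio of 0.60. In general capillary it stood at 944 and 1291 CPM, a ratio of 0.45, and in aerocyte at 2273 and 2690, a ratio of 0.24. In the proliferating class it stood at 1678 and 1628 CPM, a log2 ratio of -0.04 with an interval of -0.12 to 0.03. The class with the lowest level of Fos, general capillary, was therefore among those with the larger ratios.

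Fosb, Egr1, Atf3 and Dusp1 had their widest difference or nearly so in artery. Dusp1 stood there at 470 CPM (424 to 520) in the control and 955 CPM (882 to 1033) in the Dnmt1iECKO library. The log2 ratio was 1.02, against 0.08 to 0.29 in the other 5 classes. Fosb had a log2 ratio of 0.92 in artery and 0.62 in the proliferating class, and was below 0 only in the interferon gamma activated class, at -0.22. Egr1 had log2 ratios of 0.67 in general capillary, 0.64 in artery and 0.41 in aerocyte. Atf3 was above 0 in 5 of the 6 classes, with 0.48 in artery and 0.41 in general capillary. The artery values rest on few cells: the 5 highest cells held 37.7% of the control and 42.3% of the Dnmt1iECKO UMIs of Egr1.

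Hspa1a was lower in each of the 6 endothelial classes. In the proliferating class it stood at 317 CPM in the control library (294 to 342) and at 72.6 in the Dnmt1iECKO library (59.5 to 87.6), a log2 ratio of -2.13. Of the control UMIs in that class, 142 of 695 came from 1 cell and 49.1% from 5 cells. In the interferon gamma activated class it went from 320 to 179 CPM, and in artery from 366 to 225, log2 ratios of -0.84 and -0.70. Aerocyte and general capillary had the smallest differences, each with a log2 ratio of -0.24.

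Within the TECs, the level of the members varied far more between clusters than between libraries. The 14 clusters with at least 40 cells in each library were read, and smaller ones were left out. The larger of the 2 unnamed ones among these 14, led by Ifit1 and holding 795 control and 293 Dnmt1iECKO cells, had Fos at 3642 and 4491 CPM and Atf3 at 2537 and 3210, with 1 member of 10 higher (10.9% of genes) and 1 lower (18.2%). Atf3 was itself among its 10 leading genes. The other, led by AY036118 and holding 422 and 191 cells of low depth, had 1 higher (17.2%) and 2 lower (28.6%). General capillary joined a cluster led by Bmp6, with Fos at 1011 and 1394, and one led by Hmcn1, with Fos at 192 and 213. The clusters were computed without the members, but genes that vary with them remained in use, so that this spread is a description. Across the 14 clusters the highest control level was 23.9 times the lowest for Fos, 36.5 times for Egr1 and 31.5 times for Atf3. For Jun it was 5.95 times and for Hspa1a 7.14 times. The 14 include clusters named after fibroblasts, alveolar type 1 cells and platelets. Over the 6 endothelial classes, each read as a whole, control Fos spanned 944 to 3914 CPM.

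**Figure D3:**
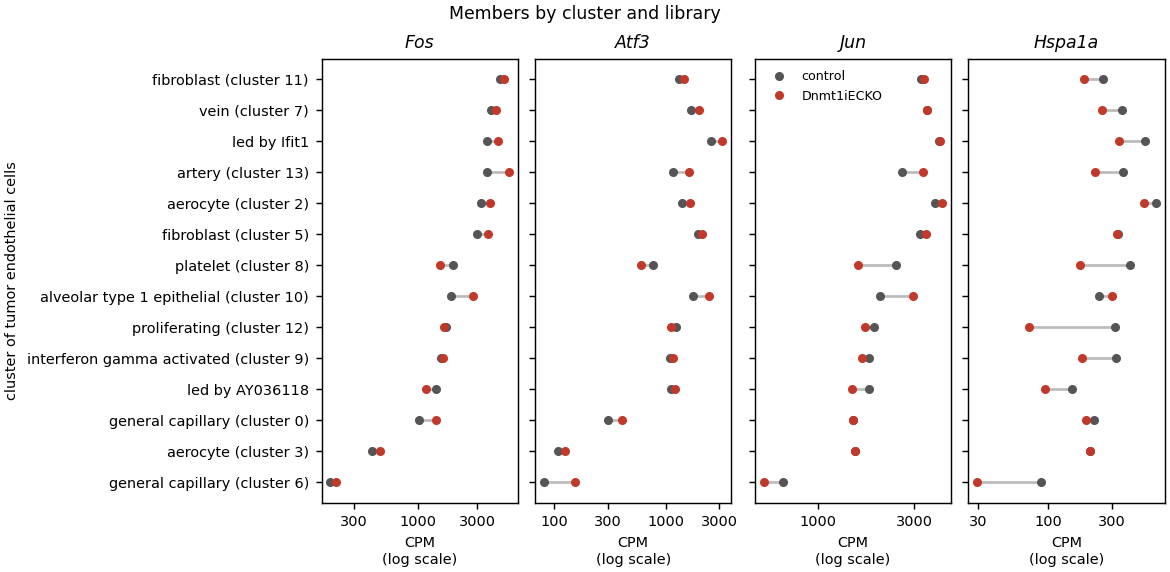
Level in CPM (log scale) of Fos, Atf3, Jun and Hspa1a in the 14 clusters of TECs (rows, ordered by Fos in the control library), with a gray point for the control and a red point for the Dnmt1iECKO library joined by a line. Fos spans 192 to 4600 CPM across the control clusters, which include those named after another cell type. Hspa1a is lower in the Dnmt1iECKO library in 13 of 14 clusters.

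By cluster, Fos was higher in the Dnmt1iECKO library in 11 of the 14 clusters, Atf3 in 12 and Jun in 8. Hspa1a was lower in 13 of the 14. The remaining one was the cluster with alveolar type 1 markers, of 151 control and 44 Dnmt1iECKO cells, where Hspa1a stood at 239 and 299 CPM, a log2 ratio of 0.32 (0.01 to 0.63). In 2 of the 13, the aerocyte cluster led by Lmntd1 and the fibroblast-named cluster led by Inmt, the log2 ratios were -0.02 and -0.01, with intervals that held 0. Leaving out 5 TEC clusters of 825 control and 388 Dnmt1iECKO cells, the 4 named after another cell type and a small unnamed one led by Hmga2 with low Cdh5, 1 member was called higher instead of 2. Among these, the cluster with alveolar type 1 markers had 5 of 10 members higher (24.1% of genes) and none lower (26.4%), and the fibroblast-named clusters none (16.5%) and 1 (15.7%). The platelet-named cluster, of 206 and 99 cells, had none higher (17.0%) and 9 lower (25.1%), with Fos at 1899 and 1501 CPM.

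At equal depth the members were spread widely over single TECs. After each cell was thinned to 2000 UMIs, leaving out 356 control and 172 Dnmt1iECKO cells with fewer, the 10 members together had a median of 15 UMIs per control TEC and 17 per Dnmt1iECKO TEC. The 10th percentile was 1 UMI in both libraries, and the 90th was 56 UMIs in control and 62 in Dnmt1iECKO. In the cluster led by Ifit1 the medians were 40 and 47 UMIs, and in general capillary 3 in both. Artery had medians of 19 and 33 UMIs, vein of 30 and 29.

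**Figure D4:**
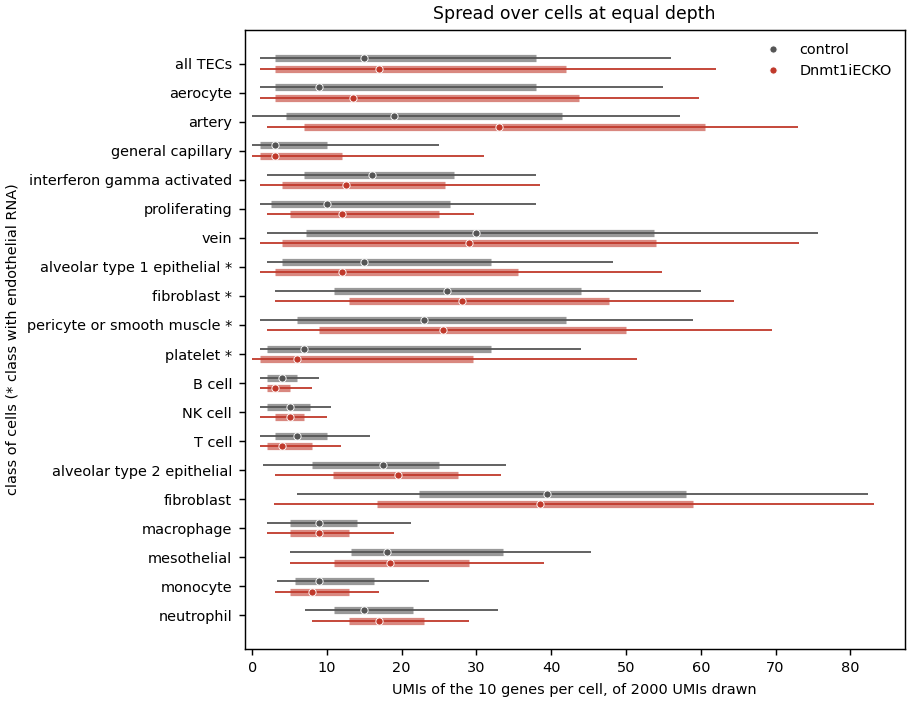
UMIs of the 10 genes per cell after thinning to 2000 UMIs, by class (rows; asterisk, class with endothelial RNA) and library (gray control, red Dnmt1iECKO); points are medians, thick bars the 25th to 75th percentile and thin lines the 10th to 90th percentile. The lines of both libraries overlap in every class, fibroblasts have the highest medians (39.5 and 38.5) and general capillary cells the lowest among the endothelial classes (3 and 3).

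Outside the endothelium, 9 cell types had at least 40 cells in each library. Over them, 13 of 89 pairs of a member and a cell type were higher in the Dnmt1iECKO library and 26 were lower, 8 of the latter being Hspa1a. The shares of genes in single cell types were 14.0% to 23.6% higher and 14.9% to 32.3% lower. The 13 became 5 without integration and 8 with at least 200 genes per cell, without doublet removal or with doublets at 0.8%. The 26 became 39 of 90 pairs without doublet removal and 22 of 89 with doublets at 0.8%. T cells had 8 of 10 members lower (17.1% of their tested genes) and none higher (16.9%). Monocytes had 6 lower (27.5%) and none higher (18.3%), macrophages 1 lower (14.9%) and none higher (14.4%), and fibroblasts 2 lower (16.1%) and none higher (14.0%). Mesothelial cells had 3 lower (21.3%) and 1 higher (19.8%), and neutrophils 1 of 9 lower (32.3%) and none higher (23.6%). On the other side, alveolar type 2 cells had 5 higher (17.5%) and 2 lower (21.3%), NK cells 4 higher (22.6%) and 1 lower (21.8%), and B cells 3 higher (18.5%) and 2 lower (19.7%). The members other than Hspa1a therefore had no common direction across the cell types.

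Fos shows this spread. In fibroblasts Fos stood at 5611 CPM in the control library (5551 to 5672), its highest level of all classes there. In the Dnmt1iECKO library Fos stood at 5388 in fibroblasts (5334 to 5442), a log2 ratio of -0.06, and at 5466 in artery. In alveolar type 2 cells it stood at 2526 and 3211 CPM, a log2 ratio of 0.35, close to that of the TECs. In monocytes it stood at 1132 and 839 CPM, a log2 ratio of -0.43. In T cells it went from 229 to 190, a ratio of -0.26 (-0.43 to -0.10), and in B cells from 234 to 354, a ratio of 0.59. Of the 423 control UMIs in T cells, 73 came from 1 cell and 34.0% from 5 cells, so that interval is too narrow. The B cell value turned to -0.44 without removal of doublets and to -0.11 after thinning to 2000 UMIs, and that of NK cells, 79.1 and 152 CPM with a ratio of 0.94, turned to -0.11 without removal of doublets. Macrophages, with 348 and 968 cells, stood at 1019 and 1134 CPM, a log2 ratio of 0.15.

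In T cells, of which 197 were control and 631 Dnmt1iECKO, Jun went from 256 CPM (233 to 280) to 129 (121 to 139), a log2 ratio of -0.98. Egr1 went from 107 to 42.1 CPM, a log2 ratio of -1.35 (-1.62 to -1.07). Of its 198 UMIs in control T cells, 36 came from 1 cell and 41.9% from 5 cells, which the interval does not cover. Junb, which had one of its highest levels there, went from 2107 to 1597, a log2 ratio of -0.40. Fosb, Atf3 and Ier2 had log2 ratios of -0.38, -0.44 and -0.33. The T cell class was thus opposite in sign to the TECs for Fos, Fosb, Egr1 and Atf3, though few control cells weigh heavily on Fos and Egr1. Whether these were the same kinds of T cell in both libraries was not tested, and a cluster led by Lef1, the gene of a T cell transcription factor, stayed outside the class.

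Endothelial RNA in the other cell types was read from 8 endothelial markers (Cldn5, Cdh5, Ptprb, Calcrl, Egfl7, Tie1, Esam and Emcn). Their summed level was 1.19% of that of TECs in control T cells and 0.67% in Dnmt1iECKO T cells, and 2.22% and 0.72% in macrophages. In monocytes it was 13.0% in the control and 0.56% in the Dnmt1iECKO library. Subtracting that share of the TEC level moved the log2 ratios of monocytes from -0.43 to 0.01 for Fos, from -1.27 to -0.14 for Egr1 and from -1.68 to -1.05 for Jun. In T cells the same subtraction left -0.23 for Fos, -1.01 for Jun and -1.58 for Egr1. Hspa1a in T cells went from -3.32 to -4.23 and Ier3 from -1.04 to -1.34. The subtraction thus moved these 3 monocyte values toward 0 and left the T cell values named here below 0. It moved other monocyte values away from 0. Fosb (205 and 236 CPM before) went to a log2 ratio of 0.81, Ier3 (414 and 405) to 1.04 and Junb to 0.30. It is therefore a rough reading and not a correction.

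Hspa1a was lower in the Dnmt1iECKO library in 8 of 8 tested cell types. In macrophages it stood at 64.0 CPM (59.1 to 69.2) and at 29.4 (27.3 to 31.6), a log2 ratio of -1.12. In fibroblasts it went from 221 to 143 CPM, a ratio of -0.62, and in mesothelial cells from 202 to 78.7, a ratio of -1.36. In alveolar type 2 cells it had the smallest difference, 197 to 156 CPM, a log2 ratio of -0.34 (-0.55 to -0.13). The median log2 ratio was -1.24 over the 8 cell types and -0.60 over the 6 endothelial classes. No test compares these medians. The 3 lowest values, in T cells, monocytes and NK cells (-3.32, -2.52 and -2.12), rest on 17 to 226 UMIs per library, and subtracting the carried-over endothelial level moved them to -4.23, -2.19 and -2.43.

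**Figure D5:**
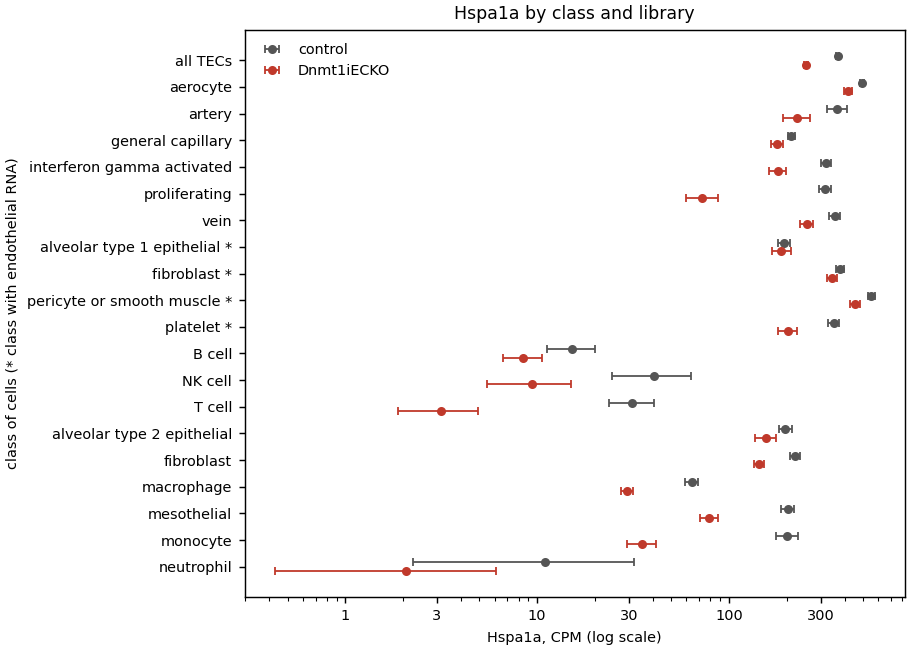
Hspa1a in CPM (log scale) by class (rows; asterisk, class with endothelial RNA) in the control (gray) and Dnmt1iECKO (red) library, with exact Poisson 95% intervals. The red point lies left of the gray one in every row, for example at 491 and 415 CPM in aerocyte and 31.3 and 3.14 in T cells, and the intervals of both libraries overlap for neutrophils and for the alveolar type 1 and fibroblast classes with endothelial RNA.

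The lymphocyte values of Hspa1a rest on very few cells. In T cells it stood at 31.3 CPM in the control library (23.8 to 40.5) and at 3.14 in the Dnmt1iECKO library (1.89 to 4.90), a log2 ratio of -3.32. These are 58 UMIs in 12 of 197 control cells, 32 of them in 1 cell, and 19 UMIs in 11 of 631 Dnmt1iECKO cells. The shares of T cells with a UMI, 6.09% and 1.74%, were near those of neutrophils, 5.77% and 1.09%, which held 3 UMIs per library. In NK cells 19 UMIs lay in 5 control cells and 17 in 6 Dnmt1iECKO cells. At this depth the lower level in lymphocytes is a difference of a few cells, and the Poisson interval, which takes UMIs as independent, is too narrow for it.

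The cells led by Hmga2, which reached no cell type name, were another population without a lower Hspa1a level. They numbered 123 and 195, with medians of 80583 and 88728 UMIs. Hspa1a stood there at 5.27 and 6.34 CPM, a log2 ratio of 0.27 with an interval of -0.19 to 0.74, and 54 of its 115 Dnmt1iECKO UMIs came from 1 cell. Hspa1b stood at 29.4 and 14.3 CPM in the same cells, a log2 ratio of -1.04. Fos (436 and 640 CPM) and Egr1 (510 and 744) were higher in the Dnmt1iECKO library there, with log2 ratios of 0.56 and 0.55. In this cluster 4 of 10 members were higher (14.2% of genes) and 1 was lower (11.1%), the latter being Ier3 at 876 and 636 CPM.

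Other clusters outside the classes were read in the same way. The cluster led by Lef1, of 126 and 581 cells, had 5 of 10 members lower (14.9% of genes) and none higher (23.5%), with Jun at 339 and 185 CPM and Hspa1a at 26.8 and 8.77. Fos did not follow there, at 243 and 264 CPM, a log2 ratio of 0.12 (-0.07 to 0.31). The Gpnmb-led cluster, 88 and 211 cells, had 3 higher (21.2%) and 1 lower (15.9%), the latter being Hspa1a at 36.1 and 21.1 CPM. In the cluster led by Cenpf, 96 and 46 cells, none was higher (16.4%) and 1 lower (20.8%), Hspa1a at 280.0 and 97.3 CPM, but 83 and 39 of these cells are also TECs. In the shallow cluster led by Btc, with medians of 1452 and 1403 UMIs per cell, 7 were lower (31.3%) and none higher (20.3%), and Hspa1a had 1 and 10 UMIs. The cluster led by AY036118 over all cells, 393 and 197 in number, had 1 higher (19.2%) and none lower (26.0%), and 351 and 165 of its cells are also TECs.

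A further 4 classes carried names of other cell types together with endothelial RNA, with their endothelial markers at 52.3% to 118% of the TEC level in the Dnmt1iECKO library. In the pericyte or smooth muscle class 2 of 10 members were higher (19.1% of genes) and none lower (15.9%). Fos stood there at 3444 and 4335 CPM, a log2 ratio of 0.33, and Hspa1a at 552 and 454, a ratio of -0.28. In the fibroblast class with endothelial RNA 2 were higher (17.5%) and none lower (13.8%), in the alveolar type 1 class 3 (19.9%) and 1 (19.3%), and in the platelet class none (16.3%) and 3 (19.5%). These 4 classes share cells with the TECs, between 71 and 296 of their control cells, so they are not separate from the endothelial values. The fibroblast class without that RNA shared 63 control and 60 Dnmt1iECKO cells with the TECs, and the mesothelial class 17 and 13.

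Levels differed between cell types by more than they did between libraries. In the control library Fos was ordered as fibroblast, vein, artery, mesothelial, alveolar type 2, aerocyte, neutrophil, proliferating, interferon gamma activated, monocyte, macrophage, general capillary, B, T and NK cell, from 5611 to 79.1 CPM. In that order the intervals of B and T cells (234 and 229) overlapped, while those of the other neighbours did not. Junb was unlike the others: neutrophils (2257 CPM) and T cells (2107) stood above vein (1816), and alveolar type 2 cells were lowest, at 359. Dusp1 was highest in neutrophils, at 1801 and 1808 CPM, above fibroblasts at 1186 and 1330. Ier3 was high in the endothelium, at 2405 CPM in vein, and at 28.1, 27.8 and 15.0 CPM in T, B and NK cells. Hspa1a was highest in aerocyte among the classes without carried-over endothelial RNA, at 491 CPM, and lowest in neutrophils, at 11.0. The neutrophil value rests on 3 UMIs, and its interval overlapped that of B cells (15.2 CPM).

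Over the 38 points of 19 classes and 2 libraries, Atf3 and Egr1 followed the mean of the other members most closely, each with a Pearson r of 0.96 on log2 levels, and Fos had 0.93. Hspa1a had 0.78, Dusp1 0.49 and Junb 0.21. Outside all lists, the genes most like the mean of the members were Slc35f5 (r = 0.89), Vcl (0.89), Lima1 (0.88), Pkd2 (0.88) and Spaca6 (0.88), of 15365 genes considered. The points share their libraries and some share cells, so these r values describe the likeness and carry no p.

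Related genes over TECs were read from 6 further lists. Of the 12 EGR, NR4A and KLF factors, 6 were higher (14.2% of all genes tested in TECs) and none lower (6.84%), with a median log2 ratio of 0.30, beside -0.01 for all genes. Myc stood at 8.68 and 16.3 CPM and Egr2 at 5.54 and 9.33, log2 ratios of 0.91 and 0.75, while the flow-responsive Klf2 (891 and 926) and Klf4 (795 and 830) differed by 0.05 and 0.06. Of 18 feedback genes of kinase signalling and RNA decay, 4 were higher (14.2% of all genes) and 1 lower (6.84%), with a median of 0.20. Dusp2 (4.37 and 8.00 CPM) and Trib1 (41.4 and 65.4) were highest at 0.87 and 0.66, and Dusp4 (8.56 and 5.52) and Dusp6 (85.4 and 68.7) lowest at -0.63 and -0.31. Dusp4 and Dusp6 went the other way from Dusp1, though Dusp6 was short of a call. The other Dusp genes of the list, Dusp2 and Dusp5 (39.7 and 46.9 CPM, 0.24), were above 0 like Dusp1.

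The 10 flow and cytoskeletal response genes had 5 higher (14.2% of all genes) and none lower (6.84%), with a median log2 ratio of 0.24. Thbs1, the gene of a matrix protein that restrains angiogenesis, stood at 101 and 169 CPM (0.75 on the log2 scale), and Cebpb at 64.5 and 104 (0.69). Sgk1 and Mcl1 were lowest, at -0.08 and -0.01. Of 10 other AP-1 family genes, 4 were higher (14.2% of all genes) and none lower (6.84%), with a median of 0.04. Batf (1.83 and 3.07 CPM) and Batf3 (1.83 and 2.72) led with 0.74 and 0.57 on few UMIs, and Mafg and Jdp2 were lowest at -0.30 and -0.26.

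Of 15 other heat shock genes, none was higher (14.2% of all genes) and 4 were lower (6.84%), with a median log2 ratio of -0.22. The 4 were Hsph1, Hspa1b, Dnaja1 and Hspa8. Hsph1, the gene of a partner of the 70-kilodalton chaperones, stood at 77.5 and 41.7 CPM in TECs, a log2 ratio of -0.89. Dnaja1, a co-chaperone gene, stood at 747 and 565 CPM, and Hspa8, the constitutive family member, at 1039 and 794, log2 ratios of -0.40 and -0.39. Cryab (0.13) and Bag3 (0.02) were the 2 highest. The median of the list was below 0 in each endothelial class, from -0.18 in aerocyte to -0.35 in vein, and in each of the 9 other cell types, from -0.21 in fibroblasts and mesothelial cells to -0.45 in B cells and -0.46 in T cells.

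In the integrated and oxidative stress list, none of 15 genes was higher (14.2% of all genes) and 3 were lower (6.84%), with a median log2 ratio of -0.05. Nqo1 (5.45 and 2.80 CPM) and Chac1 (1.96 and 1.24) were lowest, at -0.96 and -0.66, and Hmox1 and Ddit3 highest, at 0.24 and 0.15. Across the 6 lists together 19 of 80 genes were higher and 8 lower, beside 14.2% and 6.84% of all genes.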

How the data were processed

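The 10x 3′ gene expression libraries were deposited as raw UMI count matrices. Per the labels and methods, the authors made these counts with Cell Ranger on mm10, and strand use is not given in the sources used here. Nothing was normalized before deposit. Each library pools 3 mice, so cells were not taken as replicates, no p-value was computed and no paired or batch term could be fitted.

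Cells with over 10% mitochondrial UMIs or under 500 genes were removed, then those with the highest Scrublet scores (scanpy 1.11.5), 0.4% of cells per 1000 cells. TECs were defined by the UMI rules given above. Clusters came from Seurat 5.3.0 (R 4.3.3) anchor integration of 2000 variable genes without the members, the listed genes and Dnmt1, with 30 components and resolution 0.5. A name needed 3 fixed markers with a log2 fold of 1, at least 1 of them among the 10 leading genes. The rules for ties, for at least 40 cells per library and for endothelial RNA (Cdh5 above 25% of the TEC level) were set after the clusters were seen.

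UMIs were summed per library and class and divided by all UMIs (CPM). Levels have exact Poisson intervals and log2 ratios exact conditional binomial ones at 95%, computed with scipy 1.17.1 and checked on simulated counts. The simulated counts were Poisson too, so the check does not cover UMIs that gather in few cells. Genes with at least 100 UMIs over TECs, or 20 in a class, were compared with the log2 ratio of 0.32. All 10 members passed over TECs. Carried-over RNA was read from 8 endothelial markers by subtracting their share of the TEC level. The genes named from each list are the 2 highest and the 2 lowest by log2 ratio, with Hspa8, Dnaja1 and Dusp5 added after their values were seen. Alternatives covered cell filters, doublets, integration, resolution, scaling, thinning and the size of a call. The members and lists were chosen with earlier results of these data known. Positions are from GENCODE vM21 on GRCm38, and promoters from RefSeq on GRCm38.p6.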

Additional observations from a re-analysis of the deposited data

Results flagged for a closer look

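In 3 pairs of cell populations, all read with 1 library per condition, a member was past the log2 ratio of 0.32 in opposite directions. Fos had a log2 ratio of 0.33 in TECs and of -0.43 in monocytes. Fosb had 0.35 in TECs and -0.38 in T cells, and 0.35 in TECs and -0.35 in mesothelial cells. None of these differences between cell populations was tested, since each condition had a single library. Subtraction of the carried-over endothelial level moved the monocyte value of Fos to 0.01, but moved those of Fosb and Ier3, not called before, to 0.81 and 1.04.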

How the results depend on the processing

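No paired analysis was possible because each condition had 1 library and no result came from a test. With 1 pooled library per condition, the intervals hold counting error only, so differences between mice, tumors or preparations cannot be told apart from those of genotype.

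Over TECs the count of members called higher, 2, became 1 with at least 200 genes, with doublets at 0.8%, as a mean over single cells, and without clusters of other cell types, an alternative chosen after seeing the data. It became 0 with clusters named endothelial before exclusion and at 1.5-fold, where the 1 lower became 0 too. At 1.5-fold the endothelial classes had 6 higher and 3 lower of 60 pairs, and the other cell types 5 and 14 of 89. The share of all genes past 1.5-fold was not computed, so these counts have nothing to be read against. In the other cell types 13 higher became 8 with at least 200 genes, without doublet removal and with doublets at 0.8%, and 5 without integration. The 26 lower of 89 pairs there became 39 of 90 without doublet removal and 22 of 89 with doublets at 0.8%.

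Some class values turned. In B cells without doublet removal Fos was -0.44, Fosb -0.24 and Egr1 -0.98. Egr1 there was -0.098 without integration and Fos -0.11 thinned. In NK cells without doublet removal Fos was -0.11, Jun -0.45 and Egr1 -0.66. In alveolar type 2 cells Ier3 was 0.74 with at least 200 genes and 0.55 without doublet removal, and Dusp1 was -0.13 with at least 200 genes and -0.042 without integration. In T cells Ier3 was 0.042 with doublets at 0.8% and 0.0032 without the 5% of cells highest in members. The cause was not tested.

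Over 18 alternatives in TECs the log2 ratio lay between 0.26 and 0.37 for Fos, 0.28 and 0.40 for Fosb, 0.22 and 0.38 for Egr1 and -0.58 and -0.34 for Hspa1a.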

Other observations

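Over all TECs the share of cells with a UMI of Hspa1a was lower in the Dnmt1iECKO library, as its level was. A UMI was present in 46.8% of control and 43.0% of Dnmt1iECKO TECs, and after thinning to 2000 UMIs in 29.3% and 23.6%. Unthinned, the share was higher in Dnmt1iECKO in artery (55.0% and 63.6%) and in the proliferating class (46.3% and 49.1%). After thinning to 2000 UMIs it was lower in both, as the level was. The thinned shares were 30.5% and 23.6% in artery and 27.2% and 18.5% in the proliferating class. Neutrophils, the class with the lowest level though on 3 UMIs per library, had a UMI in 5.77% and 1.09% of cells, unthinned, at medians of 4816 and 5057 UMIs. Hspa1b in aerocyte did not follow Hspa1a, with a log2 ratio of 0.03 (-0.06 to 0.11) against -0.24, while in T cells it stood at -2.96 and in the proliferating class at -2.21.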
